A study of Mus musculus with 5 samples.

Results

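The 9 genes described here, Fos, Fosb, Jun, Junb, Jund, Egr1, Ier2, Dusp1 and Btg2, are members of the immediate early response and were taken by name from the 27998 genes of each count table. All 9 were present in each of the 5 libraries. The libraries came from mouse bone marrow of the Nes-GFP strain, in which the nestin promoter drives a green fluorescent reporter. The young group, 10 to 12 weeks old, gave 3 libraries, numbered 1, 2 and 3. The aged group, over 20 months old, gave 2, numbered 2 and 3, and no library carried a treatment. Cells without the blood cell protein CD45 and with the endothelial protein CD31 were sorted from the inner bone surface, frozen, thawed and counted by a droplet method that reads the 3' end of each RNA and marks each molecule with a unique molecular identifier (UMI). Young and aged libraries were made to compare the endothelium of the marrow at both ages.

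Immediate early genes are transcribed within minutes of a stimulus, from factors already present in the cell and without new protein synthesis. Growth factors, antigen receptor ligation, heat, and the dissociation and thawing of cells all induce them, mainly through the MAP kinases acting on serum response factor with its Elk partners and on CREB. The Fos and Jun proteins pair to form the transcription factor AP-1, and Egr1 is a zinc finger transcription factor. Ier2 is a nuclear regulator of transcription, Dusp1 is a phosphatase that inactivates MAP kinases, and Btg2 is an antiproliferative protein of developing lymphocytes.

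Most of the cells were not endothelial. Of 3384 barcodes, 2116 passed the filters (at least 500 genes and 1000 UMIs, at most 10% mitochondrial UMIs), between 226 and 890 per library, with library totals of 935656 to 5900751 UMIs. B-lineage cells made up 1205 nondividing and 700 dividing cells, and 582 of the dividing cells came from young replicate 1. The defining endothelial genes Pecam1 and Cdh5 were found in 94.1% and 100% of only 17 endothelial-like cells, and Ptprc, which encodes CD45, in none of these 17. Both libraries of replicate 2 held 224 and 284 UMIs of 4 Y-linked genes and no UMI of Xist, whereas the other 3 libraries held 1118 to 8562 UMIs of Xist and at most 1 Y-linked UMI, so the replicate number moves with the sex of the mice. Libraries shared at most 11 barcodes, of which at most 3 were kept. Clusters were drawn without the 9 genes and without 39 other immediate early genes, so that a difference in one of the 9 was not built in, although clusters of the same cells differ in many correlated genes. The share of all genes that passed is therefore given with each count.

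On GRCm38 with the GENCODE M21 annotation, the Fos family genes lie at chr12:85473890-85477273 on the plus strand (Fos) and chr7:19302696-19310051 on the minus strand (Fosb). The Jun family lies at chr4:95049034-95052222, minus (Jun), chr8:84974484-84978718, minus (Junb), and chr8:70698949-70700616, plus (Jund). Ier2 is at chr8:84661331-84662852, minus, Dusp1 at chr17:26505590-26562128, minus, and Btg2 at chr1:134075170-134079120, minus. All are protein coding, and Jun, Jund and Ier2 consist of 1 exon. Junb overlaps Prdx2 on the opposite strand, Dusp1 overlaps Ergic1 and Gm8225, Jund overlaps Gm11175 and Jun overlaps Junos, all opposite. Dusp1 also overlaps AC122252.1 and AC122252.4 on its own strand, which are not among the counted genes. In kept cells the opposite genes had UMIs of their own, 2201 for Prdx2, 99 for Ergic1, 136 for Gm8225, 35 for Gm11175 and 8 for Junos. The sources used here do not state whether counting used the strand, so how far reads of such pairs were kept apart is not known.

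The 250 bases before the RefSeq start of 7 of the genes were found in RefSeq's promoter windows (GRCm38.p6), and 4 are shown. The RefSeq start can differ from the GENCODE start given above. The window of Jund, chr8:70697489-70697738, does not adjoin its GENCODE start at 70698949, and that of Dusp1 lies inside its GENCODE span. Fos and Junb are the genes that remained higher in endothelial-like cells without the richest cell of each of 2 libraries. Btg2 gave the greatest fall in dividing cells, and Dusp1 carries the same element as Btg2. Each is written 5' to 3' on the gene's strand, with matches in capitals. The capitals mark the cyclic AMP response element TGACGTCA, its core TGACG and the TATA sequence TATAAA, searched on both strands.
Fos: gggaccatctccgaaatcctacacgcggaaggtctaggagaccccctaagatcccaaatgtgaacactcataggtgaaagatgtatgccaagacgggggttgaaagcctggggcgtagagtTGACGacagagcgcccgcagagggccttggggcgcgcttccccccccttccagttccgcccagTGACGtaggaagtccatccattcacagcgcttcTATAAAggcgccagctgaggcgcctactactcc
Junb: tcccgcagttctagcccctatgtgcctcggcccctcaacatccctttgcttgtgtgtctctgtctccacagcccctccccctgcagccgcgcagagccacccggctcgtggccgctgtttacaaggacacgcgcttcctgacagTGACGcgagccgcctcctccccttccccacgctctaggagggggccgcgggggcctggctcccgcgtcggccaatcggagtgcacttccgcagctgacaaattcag
Dusp1: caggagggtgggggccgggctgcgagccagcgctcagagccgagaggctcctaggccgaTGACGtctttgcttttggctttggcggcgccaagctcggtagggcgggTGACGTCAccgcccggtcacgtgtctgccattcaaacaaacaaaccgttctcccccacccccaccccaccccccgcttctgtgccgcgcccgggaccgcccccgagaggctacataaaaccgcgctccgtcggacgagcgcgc
Btg2: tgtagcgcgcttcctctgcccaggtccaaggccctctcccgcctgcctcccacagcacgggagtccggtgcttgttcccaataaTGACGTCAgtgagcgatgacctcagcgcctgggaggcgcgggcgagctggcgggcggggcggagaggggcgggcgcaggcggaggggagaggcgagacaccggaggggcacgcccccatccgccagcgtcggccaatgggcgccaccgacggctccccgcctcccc
These windows are chr12:85473640-85473889, plus (Fos), chr8:84978749-84978998, minus (Junb), chr17:26508473-26508722, minus (Dusp1), and chr1:134079156-134079405, minus (Btg2). The full element was found once in Dusp1, from 143 to 136 bases before the start, and once in Btg2, from 166 to 159 bases before it. Each full element also counts as 2 overlapping cores, and Dusp1 holds a further core at 191 to 187 bases. A full element was found in 1.55% of all 32851 windows of the same length. Cores outside a full element were also found in Fos, at 129 to 125 and 66 to 62 bases before the start, and in Junb, at 106 to 102 bases, while 17.8% of all windows held at least 1. TATAAA was found 33 to 28 bases before the start of Fos and in 12.4% of all windows. No window of the 7 genes held TGANTCA, the AP-1 motif found in 6.75% of all windows, or the serum response element, found in 1.47%. Bases farther upstream were not searched, so these genes may hold such elements there, and the window of Jund does not cover its GENCODE start. A match is a run of letters in this window and was not tied to binding here.

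Levels are given as CPM, a gene's UMIs over all UMIs of the summed cells of a class in a library, scaled to 1000000 UMIs. They are not divided by gene length, since 3' counting reads a transcript once, and no order between genes is drawn from them. In nondividing B-lineage cells of young replicates 1, 2 and 3 and aged replicates 2 and 3, Jund, the broadly expressed Jun protein, stood at 2079, 4091, 1484, 2304 and 1495 CPM. Young replicate 2 was the highest and aged replicate 2 the next, and these are the 2 libraries with Y-linked transcripts, whose part in the level was not tested. Btg2 stood at 398.0, 1107, 926, 1001 and 1002 CPM and Jun at 306, 755, 697, 702 and 761 CPM, in the same order of libraries. Both were lowest in young replicate 1, and the other 4 libraries lay close together. Junb, a Jun protein with AP-1 activity, was narrower, at 270.3, 371, 409.9, 320.3 and 416 CPM.

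Ier2 was found at 211, 84.3, 227, 118 and 242 CPM, lowest in both libraries of replicate 2. Dusp1 was found at 53.5, 49.9, 75.8, 47.3 and 103 CPM and Fos at 59.4, 86.0, 44.8, 48.6 and 84.5 CPM, with young and aged values interleaved. Fosb, at 41.6, 91.1, 8.61, 23.6 and 32.4 CPM, rested on 5 to 53 UMIs per library, and Egr1, at 53.5, 5.16, 10.3, 19.7 and 12.7 CPM, on 3 to 18. Egr1 lies on GRCm38 at chr18:34859823-34864984, plus. The cell richest in Egr1 held 21.6% of its UMIs in these 1205 cells and the cell richest in Fos 6.22% of those of Fos, against 0.932% for Jund. All 3 values come from aged replicate 2.

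None of the 9 genes passed the test of age in nondividing B-lineage cells, in a fit with age as its only term. Across all 6476 genes tested with edgeR's quasi-likelihood test (adjusted p under 0.05), 0% were called, 116 genes had an unadjusted p under 0.05, none of the 9 did, and DESeq2 also called 0 genes. The log2 differences, aged minus young (n = 3 young and 2 aged libraries), were -0.48 ± 0.37 (SE) for Jund, -0.80 ± 0.61 for Fosb, -0.36 ± 0.76 for Egr1, 0.26 ± 0.34 for Jun, 0.26 ± 0.37 for Dusp1 and 0.25 ± 0.35 for Btg2. Fos (0.01 ± 0.35), Junb (0.00 ± 0.28) and Ier2 (-0.01 ± 0.42) had values near 0 with errors of like size to those of the others. Within the 2 libraries with Y-linked transcripts Jund was at 4091 CPM in the young and 2304 CPM in the aged one, and within the other 3 at 2079 and 1484 CPM in the young and 1495 CPM in the aged. The value for Jund was -0.03 without young replicate 2, and that of Fosb turned to 0.22. With the replicate number as a further term in the fit Jund passed, as given below with the other alternatives. The clusters were spread unevenly over the libraries, and young replicate 1 held no cell of B-lineage clusters 2 and 6, whose part in these values was not tested. Of the 39 other immediate early genes 26 were tested and none passed, and of 20 regulators (kinases and partner factors such as Srf and Elk1) 15 were tested and none passed.

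Dividing B-lineage cells gave the same count. Of 3312 genes tested there 0% were called for age by edgeR, 110 had an unadjusted p under 0.05, and DESeq2 also called 0. Of the 9 genes 6 were tested, and Fosb, Egr1 and Dusp1 fell below the filter on low counts. Jund was at 1898, 2940.1 and 1901 CPM in the young and 1417 and 1581 CPM in the aged libraries. Its log2 difference was -0.65 ± 0.31 (SE, edgeR adjusted p = 0.998, unadjusted p = 0.0479). Fos (-0.87 ± 0.53) and Junb (-0.61 ± 0.38) did not pass either, and their young and aged values overlapped. Within the libraries with Y-linked transcripts Jund was at 2940.1 and 1417 CPM, and Junb at 302 and 174 CPM, in young and aged. Dividing cluster 4, described below, gave 194 of 582, 12 of 24 and 12 of 33 dividing cells in the young libraries. In the aged libraries it gave 20 of 25 and 13 of 36. Within this cluster Jund was at 668 to 1854 CPM in the young and 944 to 1309 CPM in the aged libraries, which overlap. The part of the cluster mix in the values of dividing cells was not tested. When the change with age was compared between dividing and nondividing cells, 0% of 6651 genes passed, 230 had an unadjusted p under 0.05, and none of 8 tested members passed. Jun, at -0.72 ± 0.26 (unadjusted p = 0.0121), and Dusp1, at -1.49 ± 0.58 (unadjusted p = 0.0171), had the smallest p of the members, and both had an edgeR adjusted p of 1.00.

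Jun, Junb and Btg2 made up a smaller share of the UMIs of dividing B-lineage cells than of nondividing cells of the same libraries. Jun stood at 129, 511, 427, 211 and 292 CPM in dividing cells of young replicates 1, 2 and 3 and aged replicates 2 and 3, lower than the nondividing level in all 5 libraries. Its log2 difference was -1.01 ± 0.14 (SE, 5 pairs of sums, edgeR adjusted p = 5.93e-07). Btg2, which slows entry into S phase, stood at 155, 314, 588, 259 and 346 CPM, also lower in 5 of 5, with a difference of -1.36 ± 0.13 (edgeR adjusted p = 1.27e-09). Junb stood at 119, 302, 275, 174 and 124 CPM, lower in 5 of 5, with -0.81 ± 0.15 (edgeR adjusted p = 7.55e-05). All 3 calls held when any 1 library was left out. The level of a class mixes how many cells express a gene with how much each holds. It is also a share of all UMIs, and dividing cells held more UMIs per cell. A lower CPM is thus not a lower amount per cell, and amounts per cell were not compared.

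**Figure D1:**
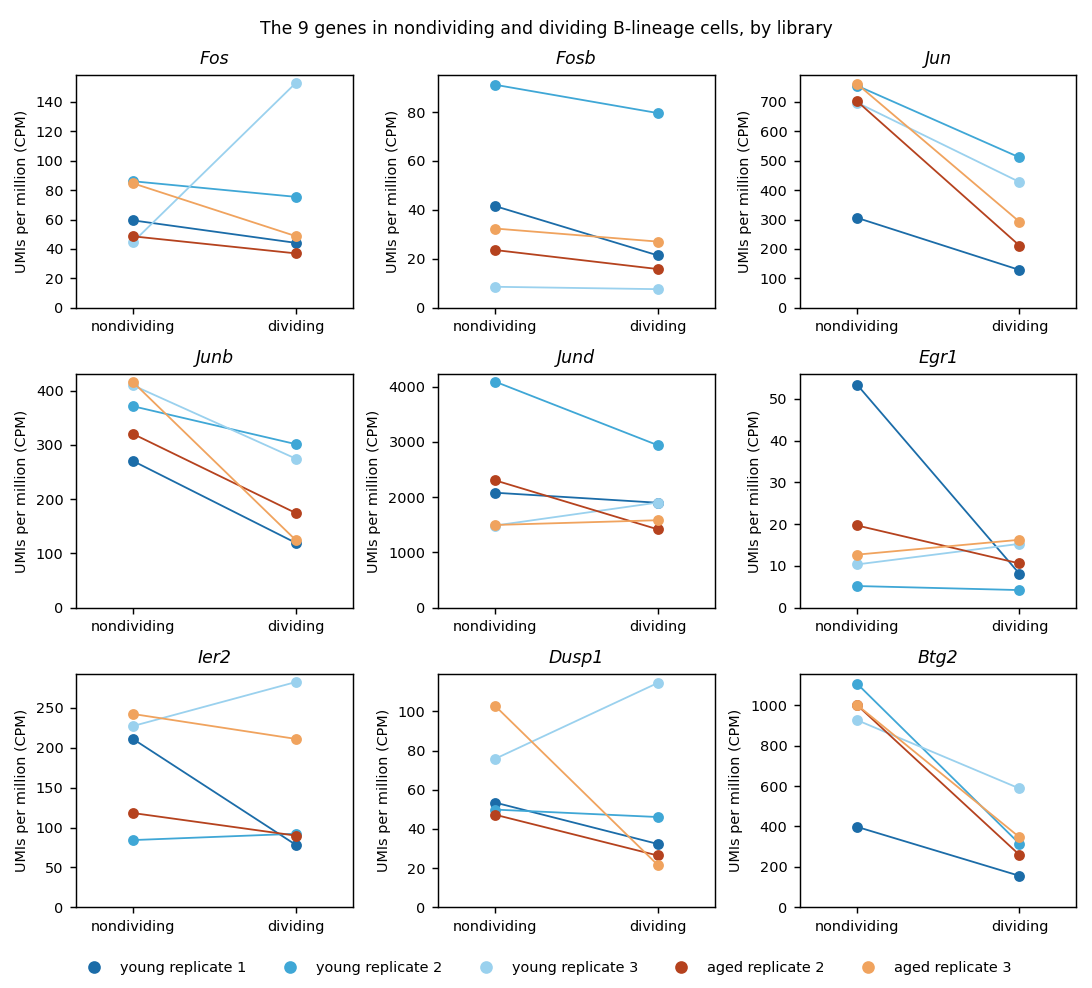
CPM (vertical axes, linear from 0) of each of the 9 genes in nondividing and dividing B-lineage cells, with 1 line per library. All 5 lines fall for Fosb, Jun, Junb and Btg2, while Jund, Ier2, Dusp1, Fos and Egr1 hold lines in both directions.

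Of 8 genes tested 3 passed, all lower, where 45% of 6651 genes passed, 23% higher and 22% lower. Jund did not pass, at -0.09 ± 0.10, and was higher in dividing cells in 2 of 5 libraries. Fos (0.07 ± 0.26), Fosb (-0.38 ± 0.27), Ier2 (-0.34 ± 0.19) and Dusp1 (-0.47 ± 0.27) did not pass either. Without young replicate 3 Dusp1 passed, at -0.77 with an edgeR adjusted p of 0.0329. Egr1 was below the filter, with 1 to 26 UMIs per library in dividing cells. The median difference of the 8 genes was -0.43, against -0.06 over all genes tested. Dividing cells also differed in depth and in chaperones: their median UMIs were 4269 against 2256, and the heat shock list held 4743 to 6668 CPM against 2759 to 3468 CPM, and the part of these in the result was not tested. After thinning each cell to 1000 UMIs, Jun was found in 18.0% of dividing and 42.5% of nondividing cells (unthinned 47.6% and 64.2%), and Btg2 in 19.7% and 57.5% (unthinned 59.9% and 80.2%). Within libraries the thinned share of Btg2 was lower in dividing cells in 5 of 5, from 16.3% against 25.2% in young replicate 1 to 37.5% against 70.9% in young replicate 2. That of Jun was also lower in 5 of 5, but close in young replicate 3, at 39.4% against 41.5%. Jund, by contrast, was found in 79.4% and 78.7% of thinned cells (unthinned 98.0% and 92.4%). In the 20 neutrophil-like cells, thinned in the same way from a median of 16864 UMIs, Jun was found in 10.0%, against 95.0% unthinned.

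Of the 39 other immediate early genes 27 were tested and 21 passed, all lower in dividing cells, where 22% of all genes were lower. The 6 others did not pass, 4 of the 27 had higher values, and the median was -1.0. They include Btg1, the antiproliferative relative of Btg2 (-1.59 ± 0.09), Sgk1, a kinase (-1.63 ± 0.20), Cd69, a surface protein of lymphocyte activation (-1.01 ± 0.13), Zfp36, which destabilizes AU-rich mRNA (-1.38 ± 0.17), and Dusp2, a nuclear MAP kinase phosphatase (-1.01 ± 0.13). Of the 20 regulators 16 were tested and 6 passed, all lower, with 45% of all genes called in either direction. They include Nfe2l2, a stress response factor (-1.31 ± 0.20), Elk3, a partner of serum response factor (-1.12 ± 0.21), and Elk4, a second such partner (-0.85 ± 0.18).

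Dividing cells were not uniform. Cluster 4 had Ung, Gins2 and Dut, genes of DNA replication, repair and nucleotide metabolism, among its leading genes. Its CPM was lower for 5 members than that of cluster 1, with Top2a and histone genes among its leading genes. This comparison was chosen after the data were seen. The S phase list was at 3002 CPM in cluster 4 and 3556 CPM in cluster 1, and the G2/M list at 1458 and 3363 CPM. Stage lists differed too, with pro-B at 1876 and 874 CPM, small pre-B at 595 and 1167 CPM and immature B at 613 and 1256 CPM. The part of stage or cell cycle in the differences was not tested. In young replicates 1, 2 and 3 and aged replicate 3, Jund stood at 668, 1854, 992 and 944 CPM in cluster 4 and at 2983, 5152, 2938 and 2345 CPM in cluster 1. The groups of values do not overlap, and the difference within libraries was -1.57 ± 0.12 (4 pairs, edgeR adjusted p = 2.84e-12). Junb stood at 57.3, 99.9, 114 and 45.5 CPM against 174, 712, 343 and 179 CPM, a difference of -1.77 ± 0.23 (edgeR adjusted p = 1.03e-07). Dusp1 (-1.39 ± 0.44), Btg2 (-0.88 ± 0.19) and Jun (-0.65 ± 0.20) were also lower, and 5 of 7 tested members passed where 43.9% of 1814 genes did, 23.3% higher and 20.6% lower. Young replicate 1 gave 323 of the cells of cluster 1 and 194 of those of cluster 4. Without it Jun was -0.15 (edgeR adjusted p = 0.672) and Btg2 -0.65 (0.0550), no longer past the threshold, and Fos passed at -1.79 (0.0153). Junb was then -2.24 and Dusp1 -2.28, both past the threshold, and without young replicate 2 or young replicate 3 Dusp1 fell below the filter. In aged replicate 3 Jun and Btg2 were higher in cluster 4, at 307 and 364 CPM against 238 and 309 CPM. Cells of cluster 4 held more UMIs, a median of 6045 against 3952, and after thinning to 1000 UMIs Jund was -1.66 and the 6 other members tested fell below the filter. The heat shock list was at 6747 CPM in cluster 4 and 3796 CPM in cluster 1. Cluster 8, led by Cdc20 and Ccnb1, was almost all from young replicate 1, where Jund was at 3395 CPM and Junb at 196 CPM.

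The 5 nondividing B-lineage clusters differed in most members. A test over pro-B-like cells, B-lineage clusters 0, 2 and 6 and immature-B-like cells, with library as a block, passed for 7 of 8 members, where 32% of 3675 genes passed. Ier2 gave the largest F (20.8, edgeR adjusted p = 5.66e-10), followed by Jund (12.2, edgeR adjusted p = 1.58e-06) and Btg2 (11.1, edgeR adjusted p = 5.30e-06). Jun, Junb, Fosb and Fos passed with adjusted p from 0.00246 to 0.0351, Dusp1 did not (0.178), and Egr1 was below the filter. After thinning to 1000 UMIs 4 members were called, Jun lost its call (0.180), and Fos and Fosb fell below the filter. Leaving out 1 library ended the call of Fosb (without young replicate 2, 0.0878), of Jun (without young replicate 3, 0.130) and of Fos (without aged replicate 2, 0.224, or aged replicate 3, 0.0605). Clusters 0, 2 and 6 are called by number, since the markers do not place all of them at 1 stage. Cluster 0 was led by Dnajc7 with Cd74 and H2-Aa, and its immature B list (3296 CPM) was above its small pre-B list (3039 CPM). Cluster 2 was led by Cd2, with the small pre-B list at 5719.8 CPM. Cluster 6 was led by Rpl3l with Vpreb1 and Igll1, and its pro-B list (6364 CPM) was above its small pre-B list (3491 CPM). The Y-linked Eif2s3y was among the leading genes of clusters 2 and 6. Cluster 0 held 56, 7, 140, 8 and 173 cells of young replicates 1, 2 and 3 and aged replicates 2 and 3. In the same order cluster 2 held 0, 132, 34, 103 and 67 cells, and cluster 6 held 0, 8, 15, 90 and 14. The part of library and sex in how these clusters formed was not tested. Of the 127 cells of cluster 6, 25 were called doublets, of 49 called in all.

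Pro-B-like cells, marked by Dntt, Vpreb1 and Igll1, held more Ier2 than B-lineage clusters 0 and 2. Ier2 stood at 254, 164, 317, 220.3 and 396 CPM in pro-B-like cells of young replicates 1, 2 and 3 and aged replicates 2 and 3. It stood at 60.9, 142 and 147 CPM in cluster 0 of young replicates 1 and 3 and aged replicate 3. In cluster 2 it stood at 59.4, 138, 54.4 and 97.4 CPM in young replicates 2 and 3 and aged replicates 2 and 3. Every value of clusters 0 and 2 was below every value of pro-B-like cells. The comparisons of clusters 0, 2 and 6 with pro-B-like cells were chosen after the data were seen. Ier2 differed by -1.39 ± 0.21 in cluster 0 (3 pairs of sums, edgeR adjusted p = 8.53e-09) and by -1.70 ± 0.25 in cluster 2 (4 pairs, edgeR adjusted p = 3.43e-10), and both calls held without any 1 library. In cluster 6 Ier2 was at 543, 131 and 437 CPM in young replicate 3 and aged replicates 2 and 3, and did not differ beyond its error from pro-B-like cells (-0.09 ± 0.28).

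**Figure D2:**
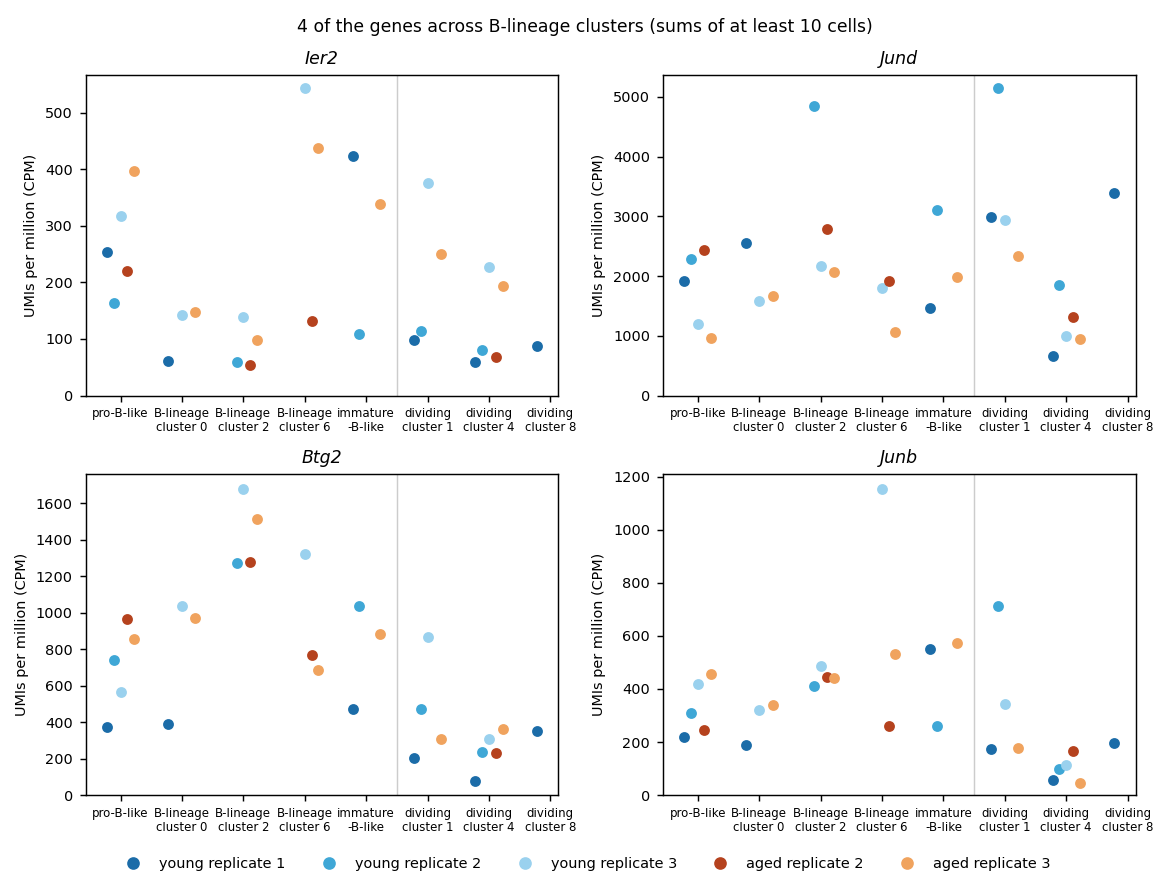
CPM (vertical axes, linear from 0) of Ier2, Jund, Btg2 and Junb in 5 nondividing and 3 dividing B-lineage clusters, with 1 point per library of at least 10 cells of a cluster. Ier2 is at 164 to 396 CPM in pro-B-like cells and at 54.4 to 147 CPM in B-lineage clusters 0 and 2, and Jund and Junb are lower in dividing cluster 4 than in dividing cluster 1 in each of the 4 libraries that hold both.

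Btg2 and Jund went the other way. Btg2 stood at 374, 738, 564, 966 and 854 CPM in pro-B-like cells, in the order of libraries above, and at 1270, 1679, 1277 and 1514 CPM in cluster 2, which no pro-B-like value reached. The difference in cluster 2 was 0.87 ± 0.13 (edgeR adjusted p = 1.70e-10). In cluster 0 it was 0.45 ± 0.14 (edgeR adjusted p = 0.00853), and without young replicate 3 that value was 0.17 (0.612) and the call was lost. Jund stood at 1915, 2279, 1194, 2436 and 960.1 CPM in pro-B-like cells, at 2556, 1581 and 1668 CPM in cluster 0 and at 4856, 2164, 2796 and 2072 CPM in cluster 2. Its values overlapped between libraries but were higher within every library, by 0.55 ± 0.11 in cluster 0 (edgeR adjusted p = 7.66e-06) and by 0.81 ± 0.11 in cluster 2 (edgeR adjusted p = 1.45e-12). Fos rose in cluster 0 by 1.2 ± 0.39 (edgeR adjusted p = 0.0139), a call carried by young replicate 1 (68.5 against 42.4 CPM) and aged replicate 3 (134 against 30.8 CPM), while young replicate 3 held 30.6 against 32.6 CPM. Without young replicate 1 or aged replicate 3, Fos fell below the filter there. Dusp1 fell in cluster 0, by -0.87 ± 0.31 on the log2 scale (edgeR adjusted p = 0.0245), and without young replicate 1, young replicate 3 or aged replicate 3 the call was lost (0.0612, 0.0964 and 0.383). Jun rose in cluster 2 by 0.44 ± 0.13 (edgeR adjusted p = 0.00541), a call lost without young replicate 3 (0.0837) or aged replicate 3 (0.0843).

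In all, 5 of 7 tested members passed in cluster 0, where 27% of 3950 genes did (12.3% higher and 14.7% lower), and 4 of 7 in cluster 2, where 30.5% of 3892 did (14.8% higher and 15.8% lower). In cluster 6 none of 6 tested members passed by edgeR, where 5.39% of 3690 genes did (1.92% higher and 3.47% lower), and only Junb (0.53 ± 0.24) had an unadjusted p under 0.05 (0.0291). These comparisons share the pro-B-like sums. The median mitochondrial share was 5.21% in cluster 0, 3.13% in cluster 2, 2.67% in cluster 6 and 3.02% in pro-B-like cells, and the median UMIs were 1795.5, 2290.0, 2721 and 2872, whose part in these differences was not tested. Of the 39 other genes 22 were tested in clusters 0 and 2. In cluster 0, 6 rose and 6 fell, and in cluster 2, 10 rose and 4 fell.

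Immature-B-like cells, marked by Ms4a1 and Cd74, held more Fosb than pro-B-like cells. Fosb stood at 126, 191 and 78.2 CPM in immature-B-like cells of young replicates 1 and 2 and aged replicate 3 (8, 14 and 3 UMIs) and at 35.3, 18.2 and 4.40 CPM in pro-B-like cells (5, 2 and 1 UMIs). The groups of values do not overlap, and the log2 difference was 2.73 ± 0.64 (3 pairs, edgeR adjusted p = 0.00497). It was 1 of 7 tested members to pass, where 17.8% of 1996 genes did, 8.77% higher and 9.02% lower. The call rests on few UMIs: without young replicate 1 or young replicate 2, after thinning to 1000 UMIs, or with no term for library, Fosb fell below the filter and could not be tested, and without aged replicate 3 it was 2.50 (edgeR adjusted p = 0.00955). Egr1, at 251, 13.6 and 26.1 CPM, and Fos, at 78.5, 81.7 and 234 CPM, were below the filter in this comparison. The Egr1 value of young replicate 1 is 16 UMIs in 22 cells. Jund (0.38 ± 0.20) did not pass, but without young replicate 1 it did, at 0.79 (edgeR adjusted p = 0.00852). Among the 39 other genes, 22 were tested, 7 rose and 3 fell. Klf2, a factor of lymphocyte quiescence (3.45 ± 0.39), and Btg1 (1.56 ± 0.15) were higher, and Rhob (-2.62 ± 0.54) and Sgk1 (-2.0 ± 0.49) lower. Of the 20 regulators 7 were tested and 1 passed, Elk3, at -2.55 ± 0.59.

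**Figure D3:**
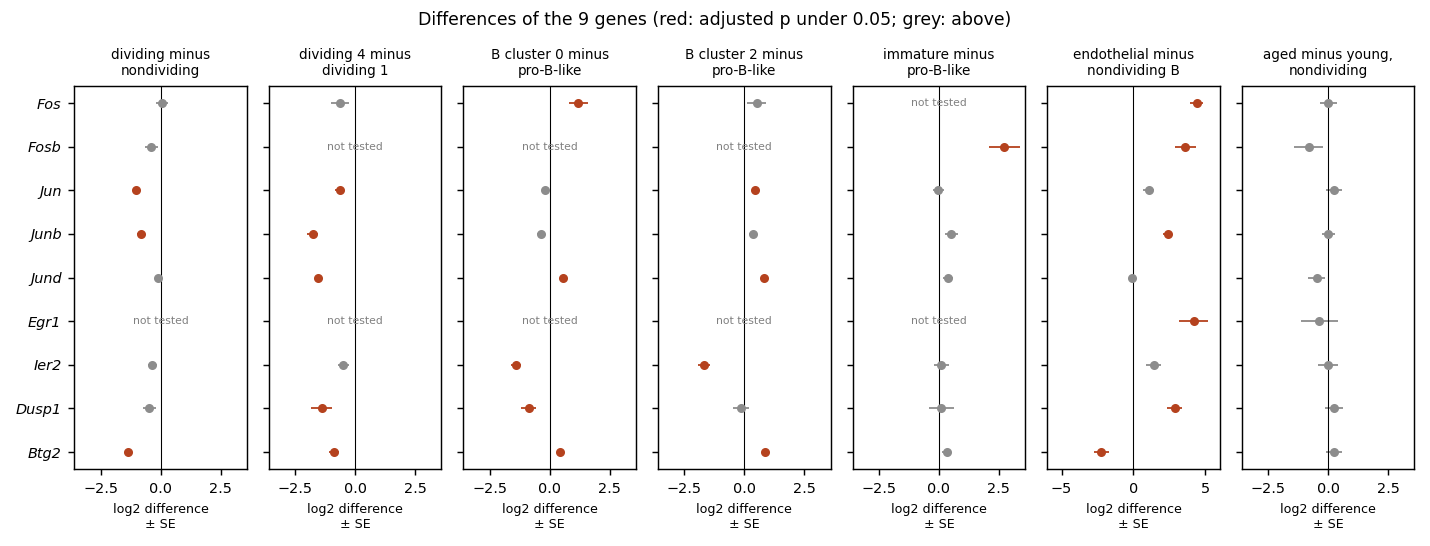
Log2 differences (horizontal axes, points with SE bars) of the 9 genes in 7 comparisons, red where the adjusted p was under 0.05, grey where it was not. Jun, Junb and Btg2 lie at -1.01, -0.81 and -1.36 in dividing cells, Ier2 lies at -1.39 and -1.70 in B-lineage clusters 0 and 2, and all 9 points of the age comparison are grey. The endothelial axis spans a wider range than the others.

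Of the 9 genes 7 had a fitted log2 difference above 0 in endothelial-like against nondividing B-lineage cells, and 5 of these passed the test. Libraries young replicate 1 (7 cells) and aged replicate 3 (8 cells) could be compared. Fos stood at 851 and 3176 CPM in endothelial-like against 59.4 and 84.5 CPM in nondividing B-lineage cells of these libraries, a log2 difference of 4.39 ± 0.44 (2 pairs, edgeR adjusted p = 1.12e-06). Egr1 stood at 203 and 1248 CPM against 53.5 and 12.7 CPM (4.17 ± 1.00, edgeR adjusted p = 0.00788), and Fosb at 729 and 397 CPM against 41.6 and 32.4 CPM (3.59 ± 0.73, edgeR adjusted p = 0.00211). Junb stood at 1215 and 3460 CPM against 270.3 and 416 CPM (2.38 ± 0.33, edgeR adjusted p = 4.49e-05). Dusp1 stood at 324 and 1134 CPM against 53.5 and 103 CPM (2.87 ± 0.52, edgeR adjusted p = 0.000761). Each of these 5 was higher in both libraries.

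Btg2 was lower in both, at 122 and 227 CPM against 398.0 and 1002 CPM (-2.23 ± 0.50, edgeR adjusted p = 0.00449). Jun (446 and 2666 CPM, 1.05 ± 0.37, edgeR adjusted p = 0.0677), Ier2 (243 and 1475 CPM, 1.40 ± 0.54, edgeR adjusted p = 0.0948) and Jund (2188 and 1872 CPM, -0.10 ± 0.24) did not pass. With at most 5% mitochondrial UMIs, Jun and Ier2 passed. In all, 5 of 9 members passed as higher where 7.38% of 3373 genes did, and 1 as lower where 7.44% did. The median over all genes tested was -0.49, that over the 9 members 2.38. Between the 2 libraries the young and aged values come from 1 library each, so no test of age is possible in these cells.

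These values rest on few cells. Of 434 UMIs of the 9 genes in the 17 cells, 339 (78.1%) were in 3 cells. A cell of aged replicate 3 held 179, which is 5.64% of all its 3175 UMIs, with 39 of Fos, 36 of Junb, 28 of Jun and 14 of Egr1. A second cell of that library held 63, or 2.91% of its UMIs, and a cell of young replicate 1 held 97, or 1.24%. In 9 of the 17 cells at most 4 UMIs were found, and 3 cells held none. The single cells of young replicate 2 and aged replicate 2 held 2 and 0. Not one of the 3 richest cells was called a doublet, and each showed 9 or 10 of the 14 endothelial markers.

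**Figure D4:**
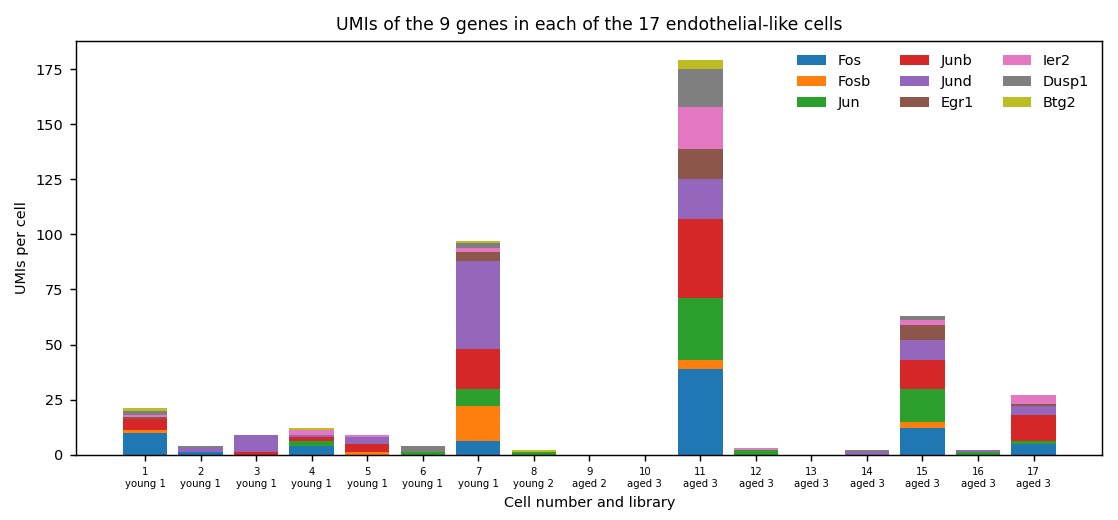
UMIs of the 9 genes (vertical axis, stacked by gene) in each of the 17 endothelial-like cells, ordered by library. Cells 7, 11 and 15 hold 97, 179 and 63 UMIs, and 9 cells hold at most 4.

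Without the cell of most UMIs in each of the 2 libraries, an alternative chosen after the data were seen, Fos remained higher at 3.46 (edgeR adjusted p = 0.000759) and Junb at 1.40 (0.0360). The calls of Fosb (1.75, 0.209), Dusp1 (1.54, 0.276) and Egr1 (2.89, 0.121) were lost, and Jund passed as lower at -1.31 (0.0181). The cell of aged replicate 3 with 63 UMIs of the 9 genes, 12 of Fos and 13 of Junb, stayed in this alternative. Heat shock genes, which also respond to stress, were at 5793 against 3389 CPM in young replicate 1 and at 7487 against 3093 CPM in aged replicate 3, and their part in the result was not tested. Of the 39 other genes 26 were tested, 8 rose and 3 fell. Ier3 rose by 6.27 ± 0.61, Atf3 by 4.29 ± 0.63 and Socs3 by 3.99 ± 0.65. Klf2, an endothelial flow-responsive factor, rose by 2.71 ± 0.30, and Btg1 was lower, at -1.74 ± 0.30. Of the 20 regulators 12 were tested, with 1 higher, Mapk3, a MAP kinase (3.06 ± 0.70), and 2 lower. Of these 2, Bach2, a transcriptional repressor expressed in B-lineage cells, was at -3.02 ± 0.72. B-lineage RNA was low in these cells, with the 8 pan-B genes at 1742 CPM against 14049 CPM in young replicate 1.

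Myeloid cells came almost wholly from young replicate 1 (80 of 81 monocyte-like, 17 of 20 neutrophil-like and 17 of 21 basophil-like cells), so no test between libraries was possible and exact Poisson intervals (95%, counting error only) are given for that library. Jund was at 344 CPM (282 to 414) in neutrophil-like and 805 CPM (749 to 865) in monocyte-like cells, against 2079 CPM (1928 to 2239) in nondividing B-lineage cells and 1911 CPM (1667 to 2179.9) in basophil-like cells. Btg2 was at 25.2 CPM (10.9 to 49.7), 66.5 CPM (51.1 to 85.1) and 95.1 CPM (47.5 to 170.2) in neutrophil-like, monocyte-like and basophil-like cells, against 398.0 CPM (333 to 471). Both genes thus made up the smallest share of UMIs in neutrophil-like cells, with intervals apart from those of B-lineage cells. The median UMIs per cell in this library were 19047 in neutrophil-like and 2337 in nondividing B-lineage cells. A lower CPM is thus not a lower amount per cell, and amounts per cell were not compared. Fos was at 117 CPM (82.1 to 161) in neutrophil-like and 190.0 CPM (163 to 219.9) in monocyte-like cells, against 59.4 CPM (36.3 to 91.7), so that the interval of monocyte-like cells lay above that of the B-lineage cells and that of neutrophil-like cells overlapped it. Egr1 was at 259 CPM (175 to 370.3) in basophil-like cells, above its 53.5 CPM (31.7 to 84.5) in B-lineage cells, on 30 UMIs. Over all libraries Egr1 was found in 10 of the 21 basophil-like cells, and the richest cell held 25.8% of its 31 UMIs. The intervals do not hold this spread between cells. Haemoglobin genes were among the leading genes of the basophil-like class, where the 6 erythroid markers summed to 17646 CPM and the 6 basophil and mast cell markers to 23349 CPM, and the part of this RNA was not tested. Ier2 was at 192 CPM (147 to 247), 311 CPM (277 to 349) and 207 CPM (133 to 309) in the 3 myeloid classes, against 211 CPM (165 to 266). B-lineage RNA was also found in these cells, with Cd79a in 54.3% of monocyte-like cells, and its part in their levels was not tested.

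Within a cell, few of the 9 genes were seen together. In cells thinned to 1000 UMIs, the mean number of members with a UMI was 1.99, 2.66, 2.26, 2.32 and 2.45 in nondividing B-lineage cells of young replicates 1, 2 and 3 and aged replicates 2 and 3. In dividing cells it was 1.45, 2.17, 2.15, 1.68 and 1.89, lower in each library, with the smallest gap in young replicate 3. Over all cells the means were 2.37 and 1.53, the second set mostly by young replicate 1. At least 4 members were seen in 8.13%, 27.6%, 17%, 13.3% and 21.4% of nondividing cells, in the same order of libraries, and in 2.92%, 8.33%, 12.1%, 4.0% and 2.78% of dividing cells, the last 4 on 1 to 4 cells each. Dividing cluster 4 had means of 0.979 in young replicate 1 and 1.45 to 1.75 in the other 4 libraries. In endothelial-like cells the mean over the 17 cells was 2.47 and the median 1, with up to 8 members in a cell.

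**Figure D5:**
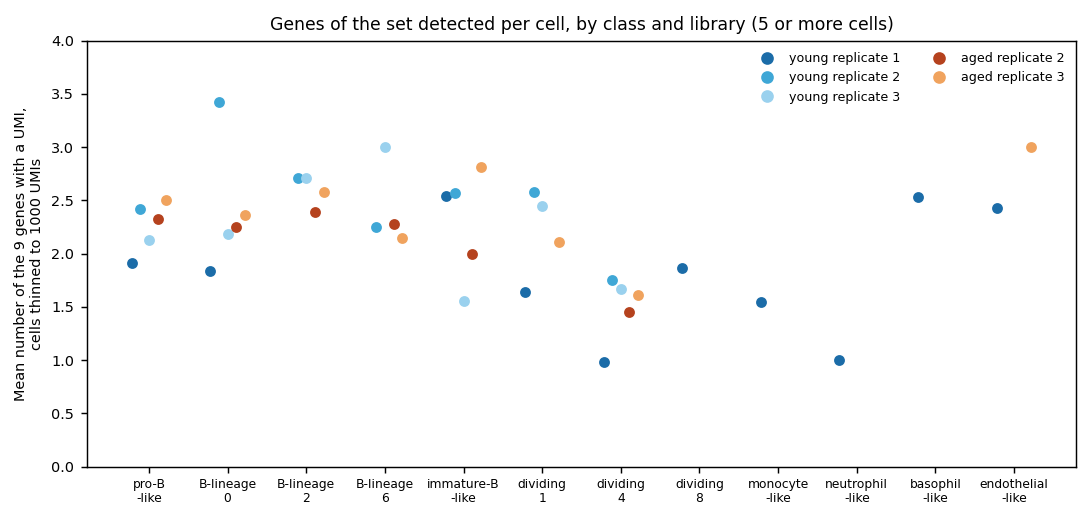
Mean number of the 9 genes with a UMI per cell (vertical axis), after thinning each cell to 1000 UMIs, by class, with 1 point per library of at least 5 cells. In young replicate 1, dividing cluster 4 (0.979) and neutrophil-like cells lie below every other class, and in the other 4 libraries cluster 4 lies at 1.45 to 1.75.

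Over the 32 sums of at least 10 cells per library and class, the genes most like the summed 9 members were Ddx5, an RNA helicase (Pearson r = 0.856 of log2(CPM + 10)), Gpbp1 (0.826), Cytip (0.823) and Pim1, a kinase (0.822), among 3067 genes of at least 50 CPM. Slc15a3, Gna13, Sox4 and Hist3h2a followed, at 0.818, 0.814, 0.803 and 0.801. The 7 members above 50 CPM correlated unequally with the sum of the 9, from 0.864 for Jund and 0.811 for Btg2 to 0.128 for Fos and -0.00 for Ier2. Each member is part of that sum, and Jund and Btg2, at means of 2010 and 641 CPM, are its largest parts. Their r is therefore partly built in, and the ranking against the sum weighs them most. Btg2 was nearest to its relative Btg1 (0.937), Jund to Hist3h2a (0.906), Jun to Btg2 (0.850) and Dusp1 to Junb (0.773). These correlations are descriptions, since the sums share libraries, depth and, within a library, free RNA.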

How the data were processed

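Each library came as a sparse table of whole-number UMI counts over 27998 Ensembl genes, deposited by the authors and made, per the submitters' processing notes, with Cell Ranger on build mm10. The notes also name R 3.5.2, edgeR 3.24.3 and DESeq2 1.22.2 without a role. A symbol was matched for 27645 identifiers. From the counts, clusters were made with scanpy 1.11.5 and leidenalg 0.10.2 (2000 variable genes, 30 components, 15 neighbours, resolution 0.8), without the 9 genes and 39 other immediate early genes (38 with a symbol match). Remaining cells were clustered again at resolution 1.5. Scrublet marked 49 doublets, which stayed in and were left out as an alternative. Counts were summed per library and class, at least 10 cells a sum in the B lineage and 5 otherwise, and tested with edgeR 4.0.16 in R 4.3.3 (TMM, filterByExpr, quasi-likelihood F test, Benjamini-Hochberg adjustment over all genes tested, threshold 0.05). Library was a block wherever classes were compared. The SE is the log2 difference over the square root of F. DESeq2 1.42.0 was an alternative, as were other scaling, gene and cell filters, thinning to 1000 UMIs, resolution 1.2 and leaving out each library. The test was tried on simulated counts. The 9 genes and the lists were chosen with earlier results of these data known, and all 9 are described in every comparison. For the 2 further lists, counts are given, and genes named are from the 5 of smallest p. Genes of like pattern were the 8 of highest Pearson r. The labels do not say from how many animals a library came, so p-values measure the spread between these libraries. The quasi-likelihood test estimates this spread in large part over all genes tested, not from the few sums of each gene alone. Very small p-values and the SE rest on that shared estimate. Depth, a median of 1889.5 to 4212.5 UMIs per kept cell, limits Egr1, Fosb, Fos and Dusp1 most. All columns of the 5 tables were used.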

Additional observations from a re-analysis of the deposited data

Results flagged for a closer look

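The 1268 barcodes left out by the filters also held RNA of the 9 genes, a signal outside the main comparisons. Over the 5 libraries the 9 genes together stood at 3110 CPM in them (3442 UMIs), where 3 UMIs would be 2.71 CPM. Within each library they were lower than in kept cells, at 2119 against 2384 CPM, 4271 against 5967 CPM and 3187 against 3789 CPM in young replicates 1, 2 and 3, and at 3826 against 4113 CPM and 3558 against 3959 CPM in aged replicates 2 and 3. Btg2 was at 157 against 140 CPM, 1089 against 869 CPM, 824 against 831 CPM, 912 against 853 CPM and 947 against 810 CPM in the same order. Jund was lower in the barcodes left out in all 5 libraries, for example at 1879 against 3667 CPM in young replicate 2. Their median mitochondrial share was 14.3%, against 4.02% in kept cells.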

How the results depend on the processing

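No called value of the 9 genes changed sign under any alternative run, and 69 values changed sign where neither was past the threshold. Of 749 recomputed values of the 9 genes, 710 stayed on their side of the threshold, and these include the 69 that changed sign. A further 21 lost a call and 9 gained one. The last 9, the shares of nondividing cells with a UMI, moved when cells were not thinned. Counts of called genes depended on depth. After thinning to 1000 UMIs, 1078 genes were called between dividing and nondividing cells, 468 (4 members) over the 5 nondividing clusters, 106 (0 members) in immature-B-like cells, 407 (2 members), 438 and 48 in B-lineage clusters 0, 2 and 6, 157 (1 member) in dividing cluster 4, 166 (3 members) in endothelial-like cells and 1 for the change with age by division. With at most 5% mitochondrial UMIs the immature-B-like comparison called 218 genes (2 members) and the age by division test 1. DESeq2 called 158 genes in immature-B-like cells. Without a filter on low counts, age called 9 genes in nondividing and 3 in dividing cells, age by division 1, and the immature-B-like comparison 2 members.

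Replicate numbers 2 and 3 occur in both age groups, and the labels do not say what a number marks. Deviations of same-numbered libraries correlated at 0.270 and 0.165 in nondividing and 0.253 and 0.137 in dividing cells. With the number as a replicate block, age called 29 genes in nondividing cells, 1 of them a member, Jund (-0.47, edgeR adjusted p = 0.0112), and 7 genes in dividing cells. With no replicate block, the immature-B-like comparison called 171 genes and 0 members.

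Leaving out 1 library at a time, calls ran from 0 to 3 genes for age by division, 0 to 4 for age in dividing cells, 81 (without young replicate 2) to 234 (0 to 1 members) in immature-B-like cells, 607 to 729 (3 members each time) in B-lineage cluster 0, 53 (without aged replicate 3) to 152 in B-lineage cluster 6, and 411 (without young replicate 1) to 945 in dividing cluster 4. The endothelial-like comparison has 2 libraries, so none was left out. A test of neutrophil-like cells was not run, since 1 library alone held at least 5 of them. The causes were not tested.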

Other observations

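Nondividing B-lineage cells above and at or below the median mitochondrial share of their library were set side by side as values, with no test. Ier2 was lower in the cells of higher share in 4 of 5 libraries, at 61.8 against 98.6 CPM in young replicate 2, 146 against 279 CPM in young replicate 3, 81.2 against 145 CPM in aged replicate 2 and 153 against 298 CPM in aged replicate 3. In young replicate 1 it was 212 against 210.3 CPM. Btg2 was higher in the cells of higher share in 4 libraries, for example at 1258 against 1011 CPM in young replicate 2, and lower in aged replicate 3, at 971 against 1022 CPM.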
